A study of Rangifer tarandus with 4 samples.

Results

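The genes described here were protein-coding genes of the deposited cattle annotation whose exons overlap those of a second protein-coding gene transcribed from the same strand. All exons of a gene's transcripts were merged, and a gene was taken when at least 1 merged exon base was also an exon base of another protein-coding gene on its strand. Of the 21848 protein-coding genes outside the mitochondrial genome (MT), 378 were taken, or 1.73%. They formed 191 pairs that shared 65706 exon bases in all. The choice used gene positions only and no expression value.

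The series holds 4 single-cell 3′ RNA libraries of peripheral blood mononuclear cells from reindeer, Rangifer tarandus. In 2 libraries the blood came from the saphenous vein, called back in the labels, and in the other two from the distal antler velvet. The series' title places the blood supply of velvet or back skin at 3 days after wounding, about 12000 cells were loaded per library, and the labels name no strain, age or treatment other than the wound. Cell-by-gene counts were not analysed here, so the values below describe the gene models against which such reads can be counted, and none of them belongs to a library, a tissue or an animal.

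A messenger RNA carries a coding sequence between a 5′ untranslated region (UTR) and a 3′ UTR. Neighbouring genes on a strand can be joined when transcription runs through the first gene's end into the next, giving a read-through or conjoined transcript, and an annotation can also extend a UTR across a neighbour or split 1 gene into 2 models. Ensembl as a rule places same-strand transcripts with overlapping coding exons in a single gene. In a 3′ library most reads come from near the transcript's end, and Cell Ranger keeps a read for counting only where it is assigned to a single gene, so bases shared by 2 genes on a strand matter most where they lie at a 3′ end. How the reads of these 4 libraries fell on shared bases was not analysed here.

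Outside MT, the shared bases were never coding in both genes. Of the 191 pairs, 161 (84.29%) shared coding bases of 1 gene with UTR bases of the other, and 30 (15.71%) shared only UTR bases of both. The remaining class, coding with coding, held 0 pairs and 0 bases, so no pair could be compared for reading frame. On opposite strands of the same annotation, 729 pairs sharing exon bases were found among 1407 genes (6.44% of all). Of those pairs, 225 (30.86%) shared coding bases of both genes. As said above, Ensembl as a rule places same-strand transcripts with overlapping coding exons in a single gene. The 0 on the same strand can thus follow from how genes are defined. Setting it against the opposite-strand share therefore says nothing about the pairs themselves. No test was made of this difference, since genes are not replicates. Of the 378 same-strand genes, 19 (5.026%) also shared exon bases with a gene on the other strand, against 6.44% of all genes.

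The pairs were ordered along the direction of transcription, and the commonest arrangement joined the coding part of the upstream gene with the 5′ UTR of the downstream gene. This combination occurred in 105 pairs (54.97%) and held 23710 bases, 36.08% of all shared bases. The 3′ UTR of the upstream gene overlapped the 5′ UTR of the downstream gene in 74 pairs (15429 bases) and its coding part in 52 pairs (13193 bases). The other combinations were rarer, from 18 pairs that shared 5′ UTRs to 1 pair that joined an upstream 5′ UTR with a downstream 3′ UTR. A pair can hold several combinations, so these counts overlap.

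**Figure D1:**
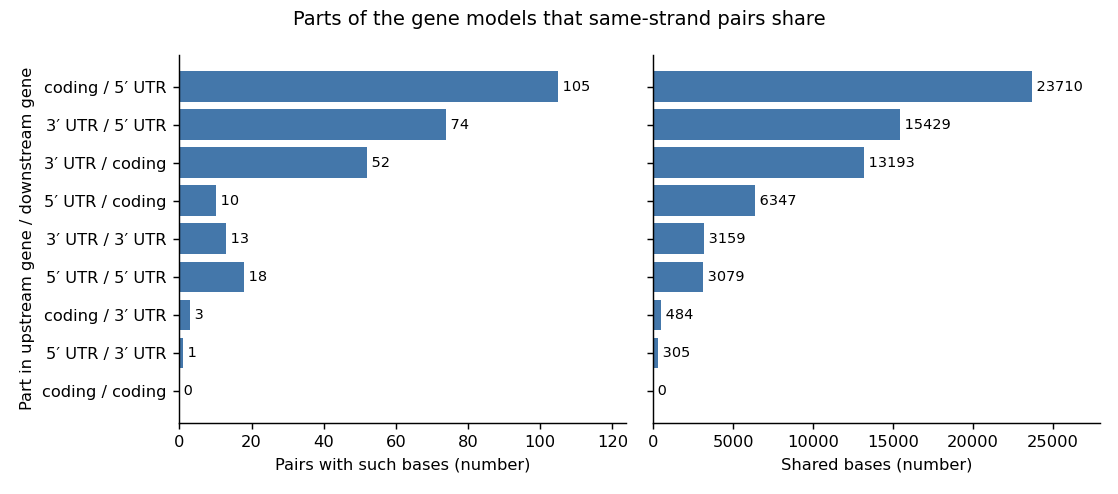
Number of same-strand pairs (left) and of shared exon bases (right) for each combination of gene parts, the upstream gene's part named first; bars are counts over all 191 pairs and have no error. The coding part of the upstream gene with the 5′ UTR of the downstream gene leads both panels with 105 pairs and 23710 bases, and coding with coding stands at 0 in both.

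In the leading arrangement the downstream gene's leader reached back over exons of its neighbour. Taken alone, without an upstream 3′ UTR over downstream coding bases, it was seen in 96 pairs, with a median of 259 shared bases. Of the 105 pairs with it, 47 (44.76%) had at least 1 splice junction with the same donor and acceptor in both genes. This was the case in 5 of the 52 pairs (9.615%) in which the upstream 3′ UTR covered downstream coding bases; 9 pairs belong to both sets. In 57 of the 105 pairs the downstream gene had more than 1 transcript, and in 38 of these 57 just 1 of its transcripts touched the upstream gene, while in 9 all of them did. In most of these 57 downstream genes the overlap thus came from a single transcript.

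PRIM1 and NACA on chromosome 5 had the most identical junctions of any pair. PRIM1, the catalytic subunit of DNA primase, lies at chr5:56711750-56729540 on the plus strand of assembly ARS-UCD1.2, and NACA, a subunit of the nascent polypeptide-associated complex that binds new proteins at the ribosome, at chr5:56711826-56743636. They shared 1371 exon bases and 12 junctions. Of these bases, 1257 were coding in PRIM1 and 5′ UTR in NACA, and 96.4% of all PRIM1 coding bases were shared. The overlap came from 1 of the 2 NACA transcripts: its 21 exons began with a 5′ UTR of 1572 bases in 15 segments, against a 5′ UTR of 172 bases in the other transcript. At the 3′ end of PRIM1, 319 of the last 500 exon bases (63.8%) were shared, whereas none of NACA's were.

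Further pairs of this arrangement included the following. RNF31 with IRF9 was known from earlier results on these data, and the others were picked after their values were seen. ICAM3, an adhesion molecule of leukocytes, shared 774 bases and 2 junctions with RAVER1, an RNA-binding protein, at chr7:14860022-14861001 on the minus strand. Of these, 695 were coding in ICAM3 and lay in the 5′ UTR of 3 of the 4 RAVER1 transcripts, and all of the last 500 exon bases of ICAM3 were shared. RNF31, the catalytic subunit of the linear ubiquitin chain assembly complex, and IRF9, the DNA-binding subunit of the interferon-stimulated transcription factor ISGF3, shared 223 bases and 1 junction at chr10:20992517-20992851. All 223 were coding in RNF31, and 1 of the 2 IRF9 transcripts carried them. CARD9, an adaptor of fungal pattern receptors in myeloid cells, had 183 coding bases in the 5′ UTR of DNLZ on chromosome 11, and 36.6% of its last 500 exon bases were shared. In these 3 pairs none of the shared bases was coding in the downstream gene.

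In the second arrangement, a long 3′ UTR of the upstream gene covered coding bases of the next gene, and in 20 of these 52 pairs that gene lay inside the upstream gene's span. SETD1A, a histone methyltransferase, and HSD3B7, an enzyme of bile acid synthesis, shared 1704 bases at chr25:27119323-27122802, the most of any pair of named genes. Every exon base of HSD3B7 was shared, 1107 of them coding, and all lay in the 3′ UTR of 1 of the 2 SETD1A transcripts. STARD3, a cholesterol-binding protein of late endosomes, covered all 979 exon bases of TCAP, a protein of the muscle sarcomere, in the same way at chr19:40041901-40043107. The 3′ UTR of HDGF, a heparin-binding growth factor, covered 651 coding bases of MRPL24, a mitochondrial ribosomal protein, on chromosome 3. Every coding base of MRPL24 was shared.

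Few genes were left without any exon base of their own. There were 4: HSD3B7, TCAP and the unnamed ENSBTAG00000007501 (inside ZGPAT) and ENSBTAG00000048988 (inside SYT7). A further 4 unnamed genes kept fewer than 50 unshared bases, between 10 and 40. Every coding base was shared in 7 genes, among them the same 4, MRPL24 and ENSBTAG00000048990. More than 50% of the exon bases were shared in 42 of the 378 genes (11.11%).

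Some upstream 3′ UTRs had a round length. Of the 110 upstream genes that shared 3′ UTR bases, 11 (10%) had a longest 3′ UTR of exactly 1000 bases, among them PROB1, SF3A2 and DGKZ. The same length was found in 20 of the 301 members with a 3′ UTR (6.645%) and in 550 of the 14319 genes with one in the whole annotation (3.841%). SF3A2, a splicing factor subunit, ran over 190 coding bases of AMH, the anti-Müllerian hormone, on chromosome 7.

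The 30 pairs that shared only UTR bases shared a median of 199.5 bases, against 252 in the 161 pairs with coding bases. In 20 of them the upstream 3′ UTR met the downstream 5′ UTR. DGKZ, a diacylglycerol kinase, and MDK, the growth factor midkine, shared 580 such bases at chr15:76374118-76374697, and all of the last 500 exon bases of DGKZ were among them. GPATCH3 and the GTPase GPN2 shared 494 bases at chr2:126320997-126321490. CORO1B, an actin-binding coronin, and PTPRCAP, a lymphocyte protein that associates with the tyrosine phosphatase CD45, shared 338 bases at chr29:45329800-45330137, or 67.6% of the last 500 exon bases of CORO1B and none of PTPRCAP's.

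In 8 of the UTR-only pairs the 2 genes shared 5′ UTR bases. The longest such overlap, 734 bases at chr5:24344510-24345243, joined TMCC3, a membrane protein of the endoplasmic reticulum, with CEP83, a centriole protein needed for cilia. Their coding parts lie 157372 bases apart. A transcript start was common to both genes in 8 of all 191 pairs, among them TMCC3 with CEP83, FLYWCH2 with FLYWCH1, UBOX5 with FASTKD5, ApoN with APOF and MTCP1 with CMC4. A 3′ end was common to both genes in 5 pairs. No pair had a start codon or a stop codon in common, which follows from the absence of jointly coding bases.

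The longest overlap of all lay outside these arrangements. TRIOBP, an actin-bundling protein, and the unnamed ENSBTAG00000048772, which lies inside it, shared 4041 bases and 4 junctions at chr5:109542389-109560183. Of these, 3987 were 5′ UTR in 1 of the 3 TRIOBP transcripts and coding in the unnamed gene, of which 98.25% of the exon bases were shared. An upstream 5′ UTR over downstream coding bases was found in 10 pairs, and 8 of them held an unnamed gene. The pair of named genes with most such bases was PAGR1, a subunit of histone methyltransferase complexes, and PRRT2, a synaptic membrane protein, with 1087 bases on chromosome 25. The shortest overlap was 6 bases, between the unnamed ENSBTAG00000048707 and BTAF1, a regulator of TATA-binding protein, on chromosome 26.

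**Figure D2:**
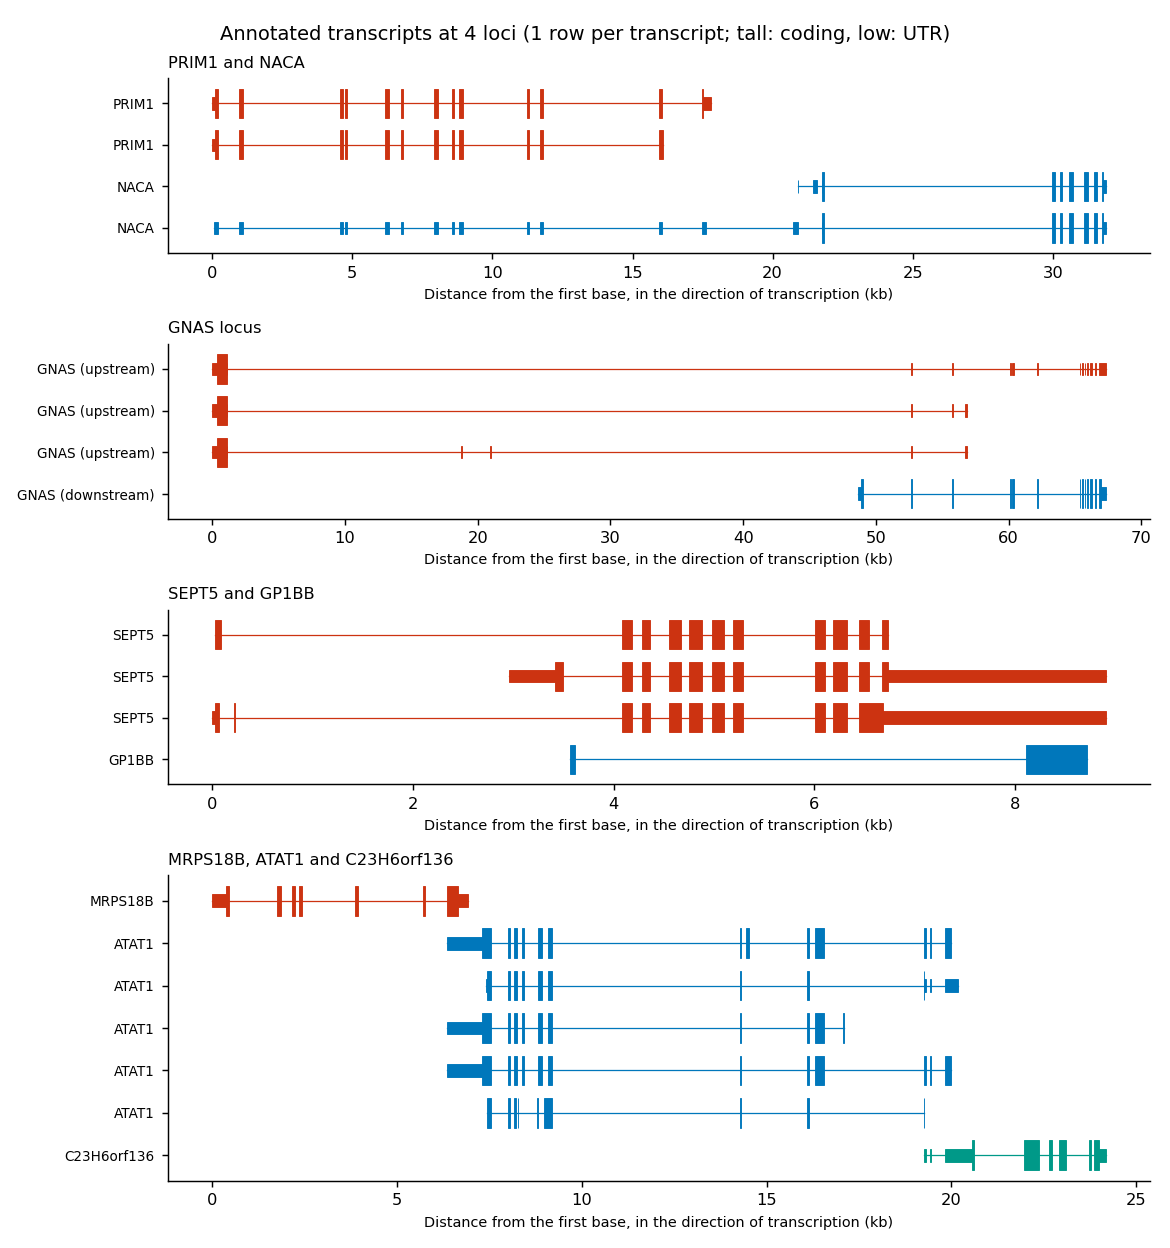
Annotated transcripts of 4 loci, 1 row per transcript, against the distance in kb from the locus' first base in the direction of transcription; tall boxes are coding, low boxes UTR and lines introns, and colours separate the genes. NACA's 21-exon transcript repeats the PRIM1 exons as UTR, the upstream GNAS model repeats the downstream GNAS exons as 3′ UTR, GP1BB's large coding exon lies in the SEPT5 3′ UTR, and ATAT1 overlaps a neighbour at each end.

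Sharing followed closeness. The pairs lay in tandem, each gene reaching past the other, in 148 cases (77.49%), while the downstream gene lay inside the upstream gene's span in 38 and the reverse held in 5. The distance between the coding parts of tandem pairs was counted as negative where they interleave, down to -16571 bases. On that count its median was 838.5 bases (quartiles 375.8 and 3230), and 31 of the 148 pairs were more than 5000 bases apart. Over all 21436 pairs of next neighbours on a strand whose coding parts do not interleave, the median distance was 51952 bases, against 1038 in the 155 of them that shared exon bases. Of neighbours less than 1000 bases apart, 76 of 221 (34.39%) shared exon bases. The share was 2.557% from 1000 to 5000 bases, 0.5261% from 5000 to 20000 and 0.1058% (16 of 15128) beyond. Closeness is part of what the rule asks, so these shares describe the genes and test nothing.

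**Figure D3:**
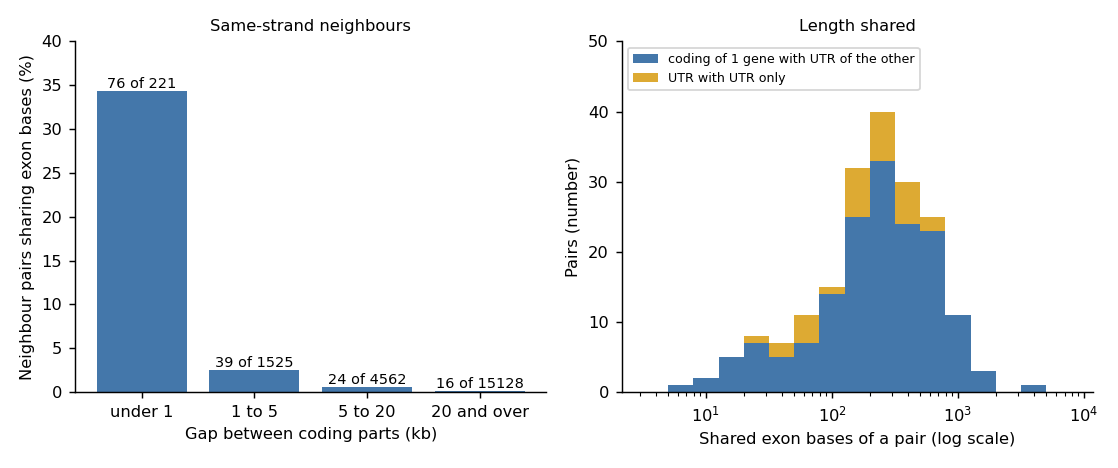
Left, percent of next-neighbour pairs on a strand that share exon bases, by the distance between their coding parts in kb, with the counts above each bar; right, number of pairs by shared exon bases on a log scale, stacked by class. The share drops from 34.39% under 1 kb to 0.1058% at 20 kb and over, and most pairs share between 100 and 1000 bases.

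The quartiles of the overlap length over the 191 pairs were 122.5 and 457 bases around a median of 248. Pairs with an identical junction shared a median of 388 bases and the 137 others 183. There were 54 pairs (28.27%) with such a junction, 39 of them with just 1, and 94 identical junctions in all. They were seen in 47 of the 148 tandem pairs and in 7 of the 43 pairs with a gene inside the other. With each gene reduced to the transcript with the longest coding sequence, 131 of the 191 pairs (68.59%) still shared bases. Only the 143 pairs with a gene of more than 1 transcript could change, and 83 of these (58.04%) still shared bases.

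The members were set beside the annotation as a whole for UTRs, transcripts, codons and coding length. A 5′ UTR was annotated in 81.75% of members and 66.46% of all genes, with medians of 337 and 208 bases where present, and the downstream genes carried the longer ones (487 bases, against 191 in upstream genes). A 3′ UTR was annotated in 79.63% of members and 65.54% of all genes, yet it was shorter, with medians of 432 and 626 bases. Since every pair needed a UTR base, the shares with a UTR are partly fixed by the choice of genes. The 5′ UTR lengths are not independent of that choice either. In 105 of the 191 pairs the downstream 5′ UTR lay over upstream coding bases. More than 1 transcript was annotated for 47.09% of members and 37.7% of all genes. Exons were merged over all transcripts, which can favour genes with several. Start codons (95.24% and 95.21%) and stop codons (98.94% and 99.03%) were about as frequent in members as in all genes, and the median coding length was 1050 bases against 1146.

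No member was a single-exon gene. Outside MT the annotation has 2725 single-exon protein-coding genes (12.47%). Of these, 0 shared an exon base with a gene on the same strand, while 62 did so with a gene on the other strand. None of the 2725 even lay within the span of a same-strand gene, introns included, whereas 403 (14.79%) lay within the span of a gene on the other strand. Over genes of any exon number, of 489 same-strand pairs of genes with overlapping spans, 191 (39.06%) shared exon bases, and of 1593 opposite-strand pairs, 729 (45.76%) did.

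Chromosome 25 had the highest share of members, 24 of 709 genes (3.385%), followed by chromosome 18 with 33 of 1220 (2.705%). Chromosome 24 had 0 of 292 and chromosome 6 had 2 of 592. These shares count few genes and were not tested.

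Most pairs joined 2 named genes, that is, genes carrying a symbol. Both genes were named in 127 pairs (66.49%), 1 was in 48 (25.13%) and neither in 16 (8.377%). Unnamed genes made up 79 of the 378 members (20.9%) and 5053 of all 21848 genes. In the 48 mixed pairs the unnamed gene was downstream in 29 and upstream in 19, and it lay inside the named gene in 14 (29.17%). In pairs of named genes 20 of 127 (15.75%) had a gene inside the other, and in pairs of unnamed genes 9 of 16 did. Overlap of UTRs alone was seen in 25 of the 127 named pairs (19.69%), in 2 of the 48 mixed pairs (4.167%) and in 3 of the 16 unnamed pairs (18.75%). Identical junctions were seen in 21 of the 64 pairs with an unnamed gene (32.81%) and in 33 of the 127 without (25.98%), a difference that was not tested. The unnamed members had a median coding length of 654 bases, against 837 in all unnamed genes. A 5′ UTR was annotated in 54.43% of unnamed members and 19.18% of all unnamed genes. The choice of genes partly fixes this, since every pair needed a UTR base. In addition, 39.6% of all unnamed genes had a single exon, and no member did.

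Candidates for read-through models were sought as genes that share exon bases with at least 2 partners that share none with each other. There were 4 such candidates. The rule asks for no transcript that joins 2 genes, and it leaves out genes with 1 partner, such as NACA. ATAT1, the acetyltransferase of alpha-tubulin, shared 576 bases with MRPS18B, a mitochondrial ribosomal protein, upstream of it and 490 bases with C23H6orf136 downstream, at chr23:28353038-28366874. Of its last 500 exon bases 98% were shared, as were all of those of MRPS18B. FXYD7 shared 387 bases with FXYD1 and 288 with FXYD5, all on the plus strand of chromosome 18 and all members of a family of small regulators of the sodium pump. It had an identical junction with each partner, 2 with FXYD1 and 1 with FXYD5, and was the only one of the 4 with that property. The junctions shared with FXYD1 and with FXYD5 lay in different FXYD7 transcripts. No annotated FXYD7 transcript held junctions of both partners. One of 2 genes with the symbol SAMD13 shared 184 bases with the second and 143 with an unnamed gene on chromosome 3. The unnamed ENSBTAG00000001308 on chromosome 21 shared 79 and 34 bases with 2 unnamed genes inside its span. Neither ENSBTAG00000001308 nor the SAMD13 gene with 2 partners had an identical junction with a partner. The 187 connected groups thus comprised 183 of 2 genes and 4 of 3 genes.

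Split models were sought as tandem pairs that shared coding bases in 1 reading frame, with a missing stop codon upstream, a missing start codon downstream or a common symbol. None was found, which follows from the absence of jointly coding bases. Of the single marks, no upstream gene lacked a stop codon, and in 14 pairs (7.33%) the downstream gene lacked a start codon, 12 of these genes being unnamed. A start codon was annotated for 92.59% of the genes that were only downstream partners and 95.21% of all genes. The named ones were RAB4B, a small GTPase after MIA, and the galanin receptor gene GALR3 after GCAT.

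In 4 pairs both genes carried the same symbol. The pair of GNAS, the locus of the stimulatory G protein alpha subunit, was the largest, with 1408 shared bases and 11 identical junctions on the minus strand of chromosome 13. The upstream model, ENSBTAG00000047223 at chr13:57465320-57532635, had 726 coding bases in 1 segment of its 13-exon transcript and a 3′ UTR of 1450 bases in 13 segments. That UTR held 1046 coding bases of the downstream model, ENSBTAG00000052413 at chr13:57465320-57484014, and both models ended at the same base. At this imprinted locus a neuroendocrine secretory protein is known to be encoded in a first exon of its own, followed by the G protein exons as untranslated sequence. All of the last 500 exon bases of either model were shared. The ART5 pair (an ADP-ribosyltransferase, 360 bases), the ATAD2 pair (a bromodomain ATPase, 283 bases, 1 identical junction) and the SAMD13 pair (184 bases) made up the rest.

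The 3′ ends were compared over the last 500 exon bases of the transcript that ends farthest downstream. Where that transcript was shorter, the window was all of its exon bases and not only a 3′ end. Some of the window's bases were shared in 176 of the 378 genes (46.56%), more than 50% of them in 96 (25.4%) and all of them in 29 (7.672%). The 2 sides of a pair differed: of the 187 genes that were only upstream partners, 132 (70.59%) had shared bases there and 68 (36.36%) had more than 50% shared, with a median of 28.8%. Of the 189 that were only downstream partners, 42 (22.22%) had shared bases there and 26 (13.76%) more than 50%, with a median of 0. The sides follow from the order of the genes, since an upstream gene in tandem overlaps at its end. Upstream genes with the whole window shared included ICAM3, DGKZ, MRPS18B and GNAS.

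**Figure D4:**
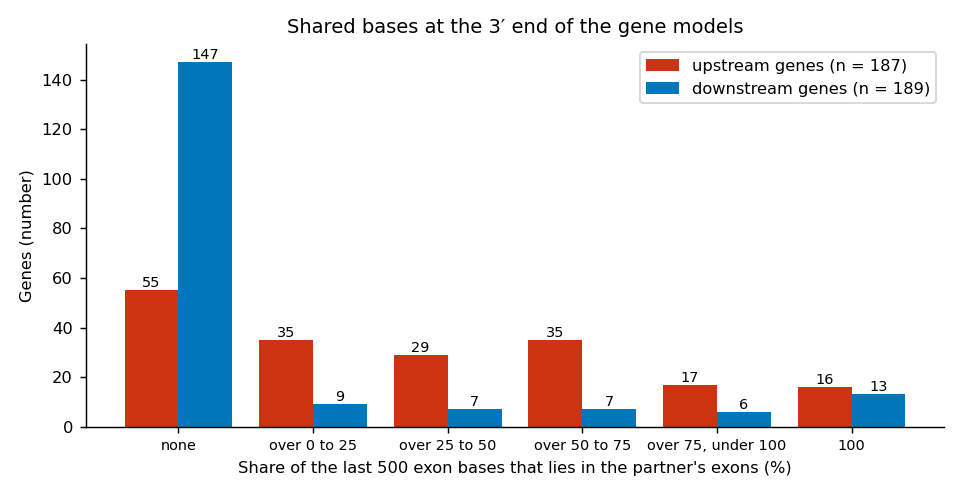
Number of genes by the percent of their last 500 exon bases, or of a shorter transcript, that lies in the partner's exons. Red bars are the 187 genes that are only upstream partners and blue bars the 189 that are only downstream partners, with numbers above the bars. In the lowest class, with none shared, stand 55 upstream and 147 downstream genes, and with all shared 16 and 13.

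Blood and immune genes were looked up among the members. Of 393 symbols in 11 lists of blood cell and immune genes, 371 were found, matching 374 genes, and 6 of these were members (1.604%, against 1.73% of all genes). All 6 were only downstream partners, as were 189 of all 378 members (50%). The lists do not hold every immune gene: ICAM3 and CARD9, described above, were outside them and were upstream partners. The lists of T cells, natural killer and cytotoxic cells, monocytes and dendritic cells, granulocytes, antigen presentation, chemokines with their receptors and complement had 0 members each. These lists matched between 20 and 43 genes each, so at a share of 1.73% a count of 0 says little about any of them.

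The 6 genes differed in what was shared. The overlaps of GP1BB, MZB1 and IRF9 were already known from earlier results on these data. GP1BB, a subunit of the platelet receptor for von Willebrand factor, shared 608 of its bases with the 3′ UTR of SEPT5, a septin, at chr17:72798470-72799077, all of them coding and 91.7% of its exon bases. It had no annotated 3′ UTR, and all of its last 500 exon bases were shared. MZB1, a chaperone of antibody-secreting cells, shared 212 bases with PROB1 at chr7:50663217-50663428, of which 177 were coding in MZB1 and 31.05% of its coding bases. TNFRSF4, the T cell costimulatory receptor OX40, shared 376 bases with SDF4, a calcium-binding protein of the Golgi, at chr16:51282437-51282812, in the 5′ UTR of 1 of its 2 transcripts. HBM, a globin gene, shared 116 bases of its 5′ UTR with coding bases of ENSBTAG00000034024 at chr25:213430-213545. IL18R1, an interleukin receptor subunit, shared 13 bases with the neighbouring receptor gene IL1RL1 at chr11:7165278-7165290. MZB1, TNFRSF4, HBM, IL18R1 and IRF9 had none of their last 500 exon bases shared.

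Some gene pairs known as conjoined in other annotations shared exon bases here. A list of 78 such pairs was written from background knowledge. Both genes were in the annotation in 62 cases, on the same strand in 61 and next neighbours in 58. Exon bases were shared in 4 pairs, all among these 58. Over all next neighbours whose coding parts do not interleave, at any distance, 155 of 21436 shared exon bases. The listed pairs were not set against neighbours at like distances. TEN1, a telomere protein, and the kinase CDK3 shared 499 bases and 1 junction on chromosome 19, including 84.86% of the TEN1 exon bases. CHKB, a choline kinase, and CPT1B, the muscle form of carnitine palmitoyltransferase, shared 297 bases on chromosome 5. INO80B, a chromatin remodelling subunit, and WBP1 shared 206 bases on chromosome 11, and MIA, a secreted cartilage protein, and RAB4B shared 89 on chromosome 18. Another 4 pairs were taken from earlier results on these data. PROB1 with MZB1, SEPT5 with GP1BB and RNF31 with IRF9 are described above. The last was DNTTIP1, a subunit of a histone deacetylase complex, with UBE2C, a ubiquitin-conjugating enzyme of mitosis. These shared 408 bases and 1 junction at chr13:74586517-74587020, and 81.6% of the last 500 exon bases of DNTTIP1 were shared but none of UBE2C's.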

How the data were processed

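The measured samples were 4 single-cell 3′ RNA libraries of reindeer blood, grouped by the tissue in the labels. Whether the libraries with a common code in their titles come from 1 animal is not stated in the labels, and no library was compared with another. The submitters' processing notes list Seurat, STAR and Cell Ranger 3. How these were run on reindeer reads with a cattle annotation was a step not given in the sources used here. The file used was the annotation the authors deposited. Per the file headers it is the Ensembl annotation of assembly ARS-UCD1.2, and the columns used hold each feature's 1-based start and end and the reading frame of coding lines. They hold no sequencing depth, and no sequence was printed because no genome was used.

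From the deposited positions, exons were merged per gene with Python 3.11.15 and NumPy 2.4.6, and figures were drawn with matplotlib 3.10.9. Coding bases were coding lines and stop codons of any transcript, and UTR bases the remaining exon bases. The 13 MT genes were left out. A gene was called named if its symbol was not an identifier. The interval code was tested on simulated data, an annotation with 2000 genes. All 899 pairs counted base by base, the same-frame bases of 292 pairs with joint coding bases and all 2000 3′ windows came out equal.

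The members and lists were chosen with earlier results of these data known. Named by rule were, per class, the 3 pairs of named genes with most shared bases, the read-through candidates and pairs of 1 symbol. So were sharing pairs of the conjoined list, members in the blood lists, and the pairs with most and fewest bases. Other genes were named after their values were seen. Some genes are not reported here. Members are described by counts beside those over all genes, with no test, since genes are not replicates. Alternatives tried were other minimum overlaps, transcripts, biotypes, sequences, strands, definitions and window lengths.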

Additional observations from a re-analysis of the deposited data

How the results depend on the processing

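No paired analysis was possible because the annotation has no sample columns and no result comes from a test. With at least 200 shared bases asked, 218 genes and 110 pairs were left, against 378 and 191, and on the opposite strand the counts were 1407 genes and 729 pairs. Asking for an identical junction with each partner left 1 read-through candidate in place of 4. Counting instead every pair with an identical junction, an alternative chosen after seeing the data, gave 54 pairs. Split models numbered 4 in place of 0 when just a common symbol was asked, also chosen after seeing the data. A wholly shared window was found in 29 genes, against 96 with more than 50% shared. Fewer than 50 unshared bases remained in 8 genes, against 4 without any. In the other alternatives the counts stayed within 1.5 times: with a minimum of 50 bases 333 genes and 168 pairs were found, with the longest coding transcripts 259 and 131, and with MT included 383 and 194. The pairs added with MT are not described by class here. The absence of jointly coding bases and of single-exon members is thus stated for genes outside MT only. Windows of 200 and 1000 bases gave 113 and 65 genes with more than 50% shared. Positions are those of cattle, and shared bases in reindeer transcripts were not measured.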
